A study of Mus musculus with 6 samples.

Results

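RNA recovered with an antibody to CPEB1 was compared with the input RNA of the same kind of cells, gene by gene. The cells were muscle stem cells (satellite cells, SCs) of C57BL/6 mice aged 3 months, used freshly isolated (fiSCs), and all libraries were made by SMART-Seq2 from total RNA. There were 2 libraries of the anti-CPEB1 precipitate (CPEB1 IP) and 2 of input RNA for which no antibody is labelled. With 2 libraries of an anti-IgG control precipitate (IgG), deposited in a separate table, they made up the 6 libraries of the series. The series design and the methods describe the precipitates as 2 independent experiments and do not say which mice went into which library, so a p-value here measures the spread between these libraries. Of 55376 genes in the count table, the 12171 with enough counts were tested, and each of them is described here by its level in the precipitate against the level in the cells.

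CPEB1 is an RNA-binding protein that recognises the cytoplasmic polyadenylation element (CPE), a short U-rich motif in the 3′ UTR close to the end of many mRNAs. It recruits the polyadenylation factor CPSF, the poly(A) polymerase Tent2 (Gld2), the deadenylase Parn and translational regulators, so that a bound mRNA can be kept silent with a short tail or be translated once its tail is extended. In muscle, SCs are quiescent until injury, and their activation calls for new ribosomes, new protein and the myogenic factor Myod1. An immunoprecipitate holds the RNA bound to the protein together with RNA that sticks to the beads or to any antibody, for which the IgG libraries serve as the control.

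The libraries held between 2564323 and 4941653 counts on genes in CPEB1 IP, 3270067 and 3314547 in input, and 1284716 and 1359052 in IgG. Levels are given in CPM, the counts scaled to a common library size after TMM normalization, first for library 1 and then for library 2 of a group, so that a value is a share of a library and not an amount of RNA per cell. Each group had 2 libraries, the error of a log2 fold change is its standard error (SE), and adjusted p-values come from the quasi-likelihood test of edgeR and were adjusted by Benjamini-Hochberg. A gene was called higher or lower when the adjusted p was under 0.05.

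In CPEB1 IP 2069 genes were higher than in input, which is 17.0% of the genes tested, and 1921 were lower, which is 15.8%. The median log2 fold change over all genes tested was -0.00. The number of calls fell when a CPEB1 IP library was left out and rose when an input library was, with the ranges given at the end. Such a fit has 1 library in a group and no spread for that group, so why the number changed was not tested. DESeq2 called 1222 and 1181.

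**Figure D1:**
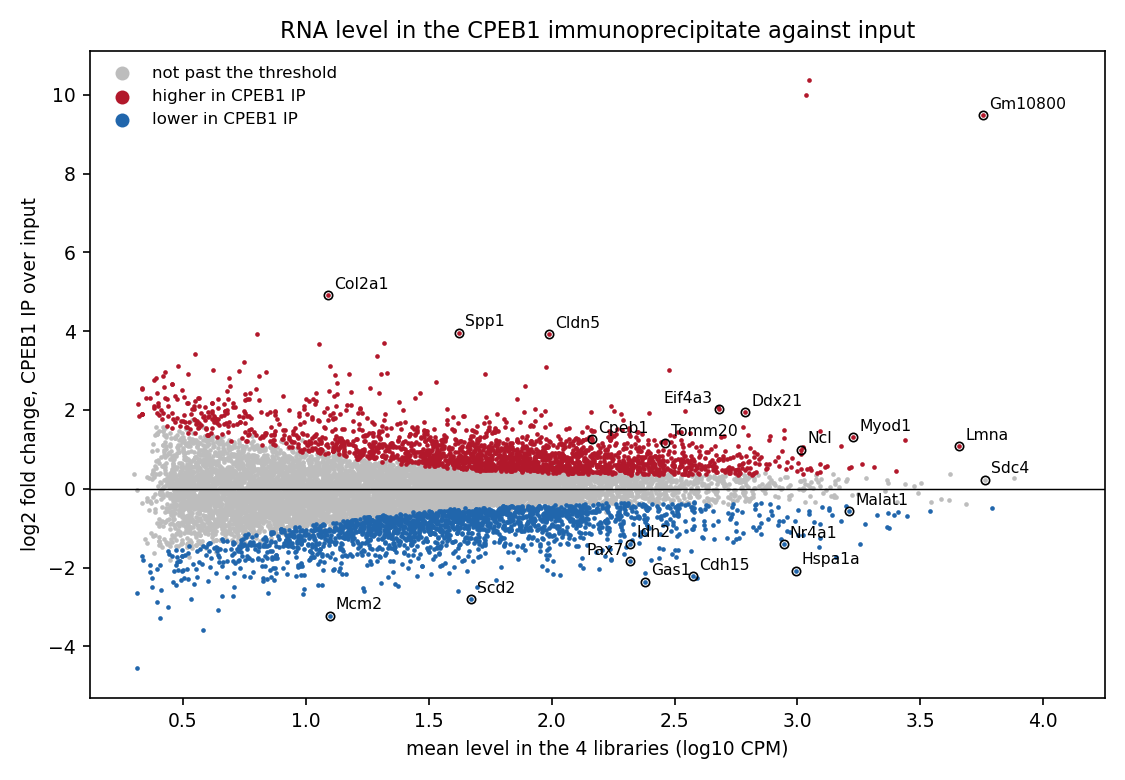
Each point is 1 of 12149 genes, placed by its mean level in the 4 libraries (x axis, log10 CPM) and its log2 fold change of CPEB1 IP over input (y axis), and coloured by whether it was higher, lower or not past the threshold. The 22 tested genes with 3 counts or fewer in input are not drawn, and the named points include Eif4a3 at 2.02, Cpeb1 at 1.25, Pax7 at -1.84 and Gm10800 at 9.49.

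The same test against the control antibody called 1779 genes higher in CPEB1 IP than in IgG (14.7% of 12124) and 2265 lower (18.7%). For IgG against input it called 2772 genes higher (21.4% of 12980) and 2515 lower (19.4%). These 3 comparisons share libraries and are given side by side only. Values that involve IgG depend on the scaling: the median over genes for CPEB1 IP against IgG was -0.01 as reported, -0.15 with upper quartile scaling, 0.27 with DESeq2 and 0.39 without the filter on low counts. The calls there split 1037 higher to 2796 lower with upper quartile scaling and 2619 to 984 with DESeq2. For IgG against input the median was 0.03 as reported and went from -0.24 without the filter to 0.20 with upper quartile scaling, where the split was 3528 to 1891, while DESeq2 gave 1004 to 1530. No direction is read here from a value against IgG inside those ranges, the median of a gene list included. Named genes and gene lists were followed over the scalings only for CPEB1 IP against input, so whether such values keep their sign was not tested. Since the IgG libraries came in their own table, a batch and the antibody cannot be told apart for them.

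The mRNA of CPEB1 itself was higher in the CPEB1 precipitate. Cpeb1 (ENSMUSG00000025586.17, chr7:81347026-81455465, minus strand, GRCm38) stood at 195 and 216 CPM in CPEB1 IP, 95.0 and 77.8 in input, and 93.9 and 99.3 in IgG. Both CPEB1 IP libraries lay above all 4 others, and the IgG values lay close to input. The mean was 205 ± 14.5 CPM in CPEB1 IP against 86.4 ± 12.2 in input (SD, n = 2), a log2 fold change of 1.25 (SE 0.15, adjusted p = 6.25e-05), and over IgG it was 1.09 (adjusted p = 2.5e-06). The gene overlaps the pseudogene Rpl7a-ps9, and the counting is not stated to use strand.

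For its relatives no such rise was called. Cpeb2, a family member with a related RNA-binding domain, had 10.3 and 7.42 CPM in CPEB1 IP against 6.58 and 7.75 in input (log2 fold change 0.27, adjusted p = 0.614). Cpeb3 had 4.95 and 3.51 against 2.09 and 5.37 (0.13, adjusted p = 0.875), and in both genes the groups overlapped. Cpeb4 was lower, at 19.8 and 22.3 against 28.7 and 48.6 CPM (-0.86, SE 0.26, adjusted p = 0.0215) and was not called with DESeq2 or when CPEB1 IP library 1 or input library 2 was left out.

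Among 17 tested genes of CPEB proteins and their partners, DESeq2 called 3 higher and 2 lower. The median of 0.20 ran from 0.08 to 0.30 when a library was left out. In the reported fit 4 were higher and 4 lower (23.5% each), close to 17.0% and 15.8% of all genes for so few members. The higher ones were Cpeb1, Tent2 (log2 fold change 0.74, adjusted p = 0.00648), Pum2 (0.73, adjusted p = 0.000963), a Pumilio RNA-binding repressor, and Eif4enif1 (0.57, adjusted p = 0.0254), which encodes the eIF4E-binding protein 4E-T. Lower were Parn, the deadenylase, at 10.3 and 13.4 CPM against 45.4 and 49.8 in input (-1.97, SE 0.23, adjusted p = 5.24e-05), and Cpsf3, the endonuclease that cuts pre-mRNA at the poly(A) site (-1.83, adjusted p = 2.2e-05), together with Cpsf1 (-0.51, adjusted p = 0.026) and Cpeb4. Parn was also low in IgG, at 13.4 and 22.7 CPM. Tent2, Eif4enif1, Parn, Cpsf1 and Cpsf3 were picked after their values were seen.

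Myod1, the transcription factor that commits SCs to the myogenic programme, was higher in both precipitates than in input. Myod1 (ENSMUSG00000009471.4, chr7:46376474-46379099, plus strand) stood at 2516 and 2268 CPM in CPEB1 IP, 1034 and 896 in input, and 2005 and 1988 in IgG. The 3 groups did not overlap, and IgG lay between the others. CPEB1 IP averaged 2392 ± 176 CPM against 965 ± 98.1 in input, a log2 fold change of 1.31 (SE 0.13, adjusted p = 2.02e-05), and IgG against input gave 0.93 (adjusted p = 2.5e-07). Over IgG the value was 0.26 (adjusted p = 0.042), which lies inside the range that scaling moves. The related factor Myf5 had 600 and 474 CPM in CPEB1 IP against 478 and 759 in input (-0.21, adjusted p = 0.43), with overlapping groups.

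A group of 38 genes was at least 2-fold higher in CPEB1 IP than in both input and IgG, with an adjusted p under 0.05 in each comparison. They are 0.341% of the 11158 genes tested in both, were chosen on these values after they were seen, and rest on comparisons that share the CPEB1 IP libraries, so no test is given for them as a group. The group had 36 members with all 6 libraries in a single fit, 57 with DESeq2 (27 of them shared with the 38), 24 with upper quartile scaling, and from 29 to 50 when a library was left out. Of the 38, 37 are protein-coding, and their median coding length was 1998 bases against 1443 over the genes tested in both. For IgG against input their median log2 fold change was -0.07, from -0.81 to 1.07, and 7 of the 36 tested there were called.

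Eif4a3, the DEAD-box helicase at the core of the exon junction complex, was among the abundant members. It stood at 782 and 755 CPM in CPEB1 IP, 163 and 216 in input, and 162 and 161 in IgG, which is 4.06-fold over input (log2 fold change 2.02, SE 0.15, adjusted p = 1.92e-06) and 2.25 on the log2 scale over IgG. Gapvd1, a guanine nucleotide exchange factor of endosomal Rab proteins, had 774 and 765 CPM against 196 and 167 in input and 219 and 241 in IgG (2.08, SE 0.13, adjusted p = 7.4e-07). Kdm5b, a histone H3K4 demethylase, had 541 and 565 CPM against 154 and 130 in input and 148 and 149 in IgG (1.96, SE 0.14, adjusted p = 1.24e-06). For all 3 the CPEB1 IP libraries differed little from each other and lay far above the 4 other libraries.

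Ddx21, a nucleolar helicase that takes part in rRNA transcription and processing, had 972 and 972 CPM in CPEB1 IP, 268 and 239 in input, and 302 and 310 in IgG (log2 fold change over input 1.94, SE 0.13, adjusted p = 7.89e-07). Chd4, the ATPase of the NuRD chromatin remodelling complex, had 901 and 896 CPM against 288 and 318 in input and 264 and 254 in IgG (1.57, SE 0.13, adjusted p = 3.75e-06). Lmna, which encodes the nuclear lamins A and C, had 6499 and 5861 CPM against 3113 and 2688 in input and 1841 and 1846 in IgG (1.09, SE 0.14, adjusted p = 8.3e-05). CPEB1 IP lay above the other groups in all 3, and in Chd4 and Lmna IgG lay below input.

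Further members with a mean over 50 CPM and a known role were Tln1, the talin that links integrins to actin (1.32 over input and 1.80 over IgG on the log2 scale), Ctnnb1, the catenin of adherens junctions and Wnt signalling (1.07 and 1.27), Clint1, a clathrin adaptor (2.11 and 1.47), and Ddx54, a nucleolar helicase (1.34 and 1.53). Bod1l, a protein that protects replication forks, was at 1.95 and 1.55. Of the mitochondrial genes, Coa7, a cytochrome c oxidase assembly factor, stood at 58.2 and 59.8 CPM against 8.07 and 9.84 in input and 16.6 and 24.2 in IgG (2.72 over input). The mitochondrial ribosomal proteins Mrpl44, Mrpl46 and Mrps31 had log2 fold changes of 1.06, 1.32 and 1.01 over input, and Mrpl44 and Mrps31 lost their call with DESeq2 and without either CPEB1 IP library, Mrpl44 also in 3 further analyses. The cartilage proteoglycan Acan had no count in either input library and 78 counts in CPEB1 IP, which is at least 23.9-fold higher against a floor of 3 counts over the group.

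**Figure D2:**
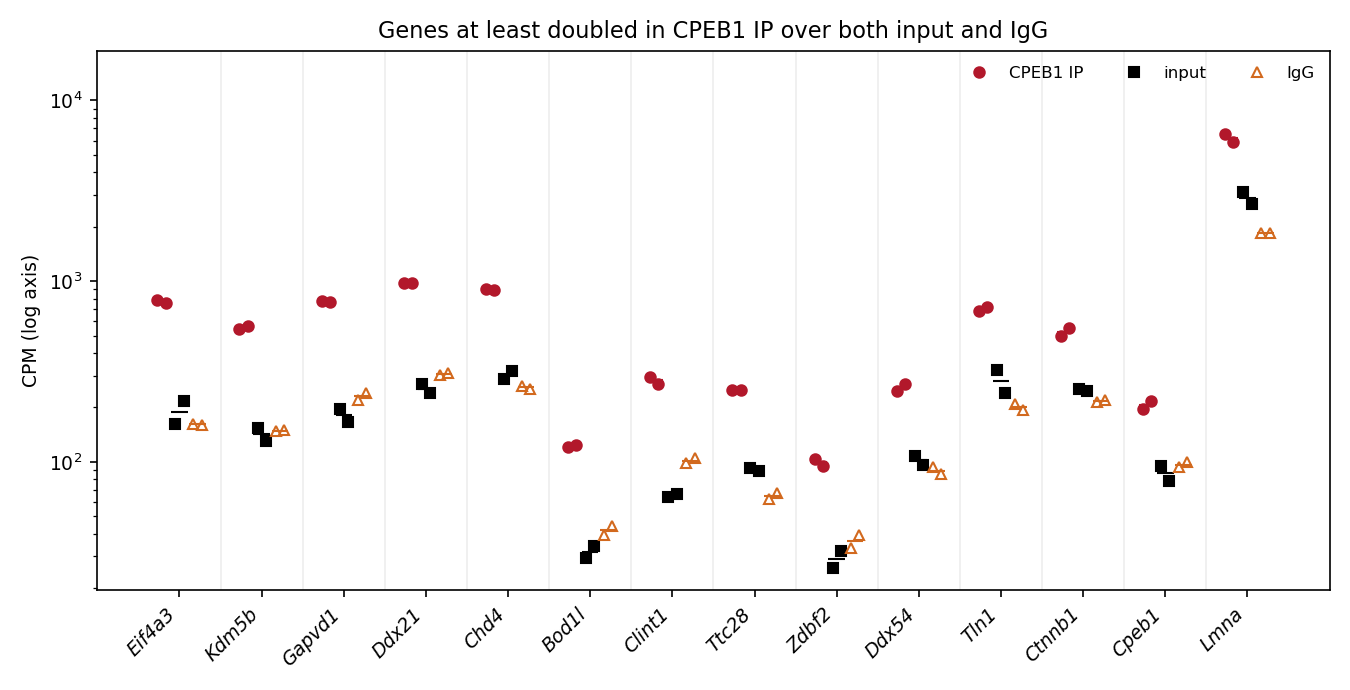
CPM (y axis, log scale) of 14 of the 38 genes in each library, with CPEB1 IP as circles, input as squares, IgG as open triangles and a short line at each group's mean. In each gene drawn both CPEB1 IP values lie above all 4 others, as for Kdm5b at 541 and 565 CPM against 130 to 154.

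Cpeb1 was itself 1 of the 38. A CPE, searched as TTTTAT or TTTTAAT on the sense strand of the longest annotated 3′ UTR, was found in 23 of the 37 protein-coding members (62.2%), against 65.3% of the genes with a 3′ UTR tested in both comparisons. The last CPE before the 3′ end is shown for 6 of them, Cpeb1 among these, and for Myod1, to let the sites of genes high in the precipitate be read beside those of genes low in it. Each line is 30 bases of the GRCm38 genome in the sense of the mRNA, 5′ to 3′, with the CPE in capitals.
Cpeb1: cttgacttttctTTTTAATttaacgattac
Myod1: gaccacttatttTTTTATataagacttttg
Kdm5b: gtgaagttccagTTTTAATggcggacaaaa
Gapvd1: attggaactggaTTTTATagatgcacgttc
Ddx21: attacagcctgtTTTTATgttccagctgtc
Chd4: ctgttggcatctTTTTAATaccaggaaccc
Ctnnb1: tggttcagaattaaacTTTTAATtcattca

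These sites lie at chr7:81347257-81347286 (minus strand) in Cpeb1, chr7:46378894-46378923 (plus) in Myod1, chr1:134634188-134634217 (plus) in Kdm5b, chr2:34674973-34675002 (minus) in Gapvd1, chr10:62580354-62580383 (minus) in Ddx21, chr6:125130434-125130463 (plus) in Chd4 and chr9:120960478-120960507 (plus) in Ctnnb1. Eif4a3, with a 3′ UTR of 180 bases, held neither motif. Genes that were lower in CPEB1 IP than in input could hold the same motifs, as the following 4 show, while Cdh15, with a 3′ UTR of 374 bases, held neither.
Pax7: agaacattggctTTTTATatataaatctat
Scd2: accaagtgacacTTTTAATaagagactaag
Hspa1a: gcttgactaacaTTTTATctgaagacacag
Btg2: tttcttttttgtTTTTAATaaaaatgtagc

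They lie at chr4:139738099-139738128 (minus), chr19:44305705-44305734 (plus), chr17:34969270-34969299 (minus) and chr1:134075338-134075367 (minus). The printed matches of both sets lay from 7 bases (Ctnnb1) to 1141 bases (Scd2) before the annotated 3′ end. Kdm5b at 1079 bases, Pax7 at 1049 and Gapvd1 at 391 were thus not close to it. A match is a description of the sequence and not of binding.

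Across all tested genes with a 3′ UTR, 64.5% of 10885 held a CPE by this search. The share was 65.8% of the 1950 genes higher in CPEB1 IP (95% exact Clopper-Pearson interval 63.7 to 68.0), 63.9% of the 1805 lower genes (61.7 to 66.2) and 64.2% of the 7130 genes that were neither, so the intervals of higher and lower genes overlapped. The number of CPEs made little difference to the calls: with none, 666 of 3869 genes were higher and 651 lower, and with 4 or more, 451 of 2526 were higher and 393 lower. When the genes were divided into 5 equal classes by 3′ UTR length, those with a CPE were higher more often than those without in each class, at 21.0% against 18.2% in the shortest and 17.5% against 11.5% in the longest, where 113 genes had none. The AU-rich pentamer ATTTA, which CPEB1 is not known for, gave 19.0% against 18.9% in the shortest class and 17.3% against 13.2% in the longest. Against IgG the order was the opposite: genes with a CPE were called higher less often than those without in each class. There it was 85 of 499 against 317 of 1493 in the shortest class and 218 of 1985 against 13 of 98 in the longest. These shares and counts are descriptions and were not tested against each other.

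Coding length went with the calls more than CPE content did. Of 5 equal classes of protein-coding genes, the one with the shortest coding sequence, 96 to 765 bases, had 576 of 2184 genes higher (26.4%) and 188 lower (8.61%), with a median log2 fold change of 0.18. The 3 longest classes had more lower than higher genes, for example 339 higher and 435 lower from 2613 bases up, with a median of -0.07. Without CPEB1 IP library 1 or 2, 332 and 284 of the shortest class were higher and 93 and 99 lower, and 183 and 143 of the longest class were higher and 233 and 264 lower. Without input library 1 the shortest class had 301 lower. Protein-coding genes were also split by summed exon length within 5 classes of input level per length. In the highest class, 249 were higher and 110 lower of the 728 shortest genes, against 155 and 197 of the 729 longest. In the lowest class these were 138 and 23 against 75 and 59. The classes between showed no excess of higher calls, with 84, 97 and 162 among the shortest against 94, 135 and 166 among the longest. Lower calls there were 54, 91 and 124 against 149, 155 and 185. Cytosolic and mitochondrial ribosomal proteins, described next, are short genes, and their part in this was not tested.

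**Figure D3:**
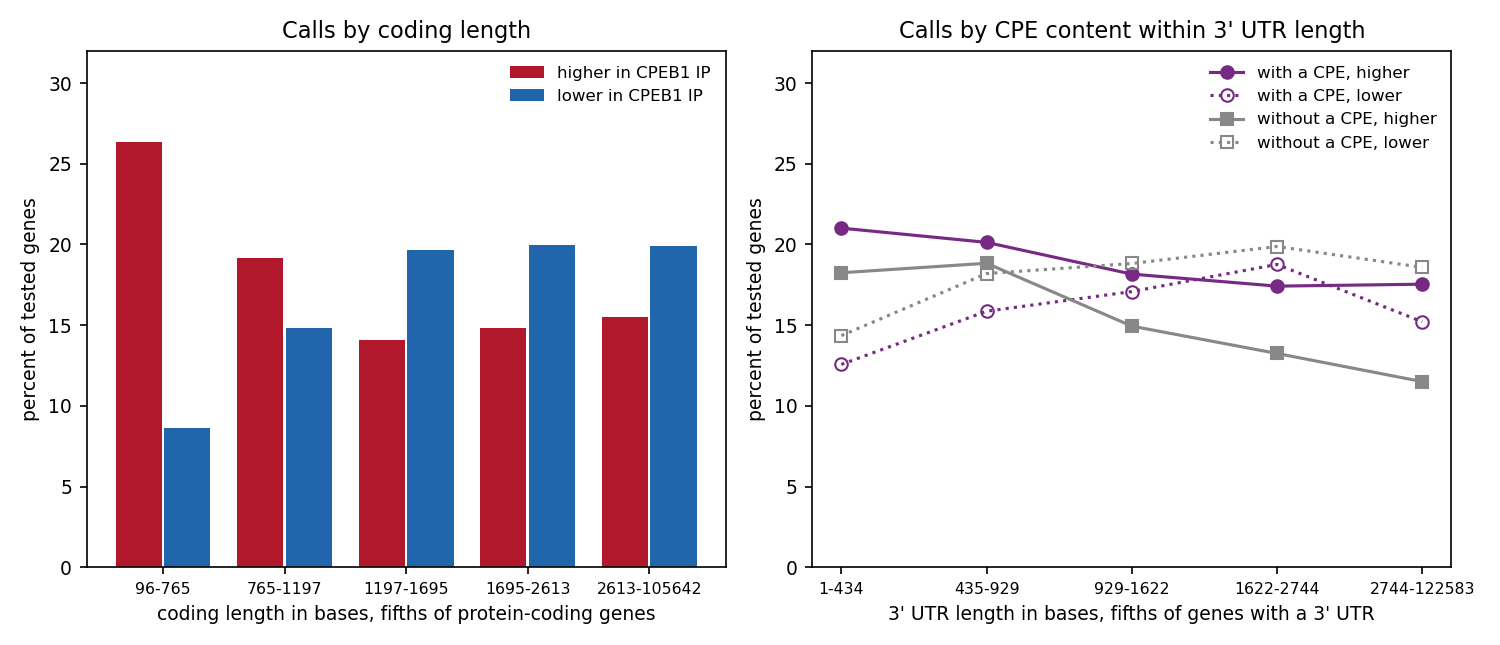
Left, percent of tested protein-coding genes (y axis) that were higher or lower in CPEB1 IP than in input in each of 5 classes of coding length in bases (x axis). Right, the same for genes with and without a CPE in each of 5 classes of 3′ UTR length in bases (x axis). Higher calls are at 26.4% in the class of shortest coding length and at 15.5% in the longest, while on the right the genes without a CPE are at 18.2% in the shortest and 11.5% in the longest class.

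Genes for making ribosomes were higher in the precipitate as a group. Of 75 ribosome biogenesis factors, 61 were higher and none lower, against the background of 17.0%, and their median log2 fold change was 0.78, ranging from 0.02 in Nop58 to 1.71 in Polr1b. IgG showed part of the same, with a median of 0.43 for IgG against input. For CPEB1 IP against IgG the median was 0.37, which lies inside the range that scaling moves. The count of higher genes lay between 44 and 67 in the other analyses of all genes or of part of the libraries.

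Ncl, the nucleolin that binds pre-rRNA, stood at 1407 and 1353 CPM in CPEB1 IP, 648 and 737 in input, and 923 and 1082 in IgG (log2 fold change 0.99, SE 0.13, adjusted p = 0.000101). Nop56, a core protein of box C/D snoRNPs, had 776 and 785 CPM against 583 and 384 in input and 696 and 699 in IgG (0.69, adjusted p = 0.00742). Its partner Nop58 had 679 and 671 CPM against 605 and 724 (0.02, adjusted p = 0.916). Ncl and Nop56 were thus above input without overlap, and Nop58 was not. Among components of the small subunit processome, Utp15 (1.27, adjusted p = 5.09e-05), Wdr3 (0.92, adjusted p = 0.00162), Wdr43 (0.97, adjusted p = 0.000121), Imp3 (1.33, adjusted p = 0.00029) and Imp4 (1.40, adjusted p = 1.76e-05) were all higher. Imp4 may stand for them, at 265 and 264 CPM in CPEB1 IP, 108 and 92.5 in input, and 199 and 220 in IgG, with IgG nearer to the precipitate than to input. Ncl, Nop56, Nop58 and Wdr43 carry snoRNAs in their introns, while the genes were counted over their annotated exons.

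Translation initiation factors were higher in 27 of 53 and lower in 1, Eif2d (-1.12), with a median of 0.48. The medians of 0.34 over IgG and 0.07 for IgG against input lay inside the ranges that scaling moves. Without CPEB1 IP library 1 or 2 the higher ones numbered 14 and 15. Eif5b, the GTPase that joins the ribosomal subunits, had 286 and 286 CPM in CPEB1 IP, 103 and 101 in input, and 172 and 220 in IgG (1.49, adjusted p = 8.34e-06). Eif3a, the largest subunit of the scaffold eIF3, had 789 and 766 CPM against 349 and 385 in input and 527 and 558 in IgG (1.08, adjusted p = 5.29e-05). In both the 3 groups were separate and IgG lay between. Eif3g (0.81, adjusted p = 0.000516) and Eif2s1, the alpha subunit of eIF2 (0.79, adjusted p = 0.00122), were higher as well, and so was Eif5a (0.53, adjusted p = 0.00626), whose call was lost without either CPEB1 IP library. Eif4b (0.25, adjusted p = 0.157), Eif1 (0.37, adjusted p = 0.0685), Eif4g2 (0.05, adjusted p = 0.814) and Eif1a (-0.26, adjusted p = 0.196) did not pass the test. Of 17 elongation and termination factors 5 were higher and 1 lower (2 higher without CPEB1 IP library 1), with Eef1a1 at 0.07 (adjusted p = 0.742) and Eef2 at 0.27 (adjusted p = 0.108), and of 36 aminoacyl-tRNA synthetases 8 were higher and 7 lower (median -0.03), and 3 were higher without either CPEB1 IP library.

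Cytosolic ribosomal proteins were higher in 49 of 84 and lower in none, with a median of 0.45, but IgG carried the same excess over input, with 45 of 84 higher and a median of 0.40. Over IgG their median was -0.06. As a share of all counts they took 3.50% and 3.37% of the CPEB1 IP libraries, 2.42% and 2.69% of input, and 3.52% and 3.60% of IgG. Rplp0, the stalk protein of the large subunit, stood at 4227 and 3499 CPM in CPEB1 IP, 1653 and 1614 in input, and 4217 and 4216 in IgG (1.24, SE 0.14, adjusted p = 3.6e-05). Rpl13 (0.45, adjusted p = 0.0184) lost its call without either CPEB1 IP library, and Rpl4 was at 0.11 (adjusted p = 0.536). The count of 49 was 15 without CPEB1 IP library 1, 13 without library 2 and 74 without input library 2. Ribosomal protein genes also have many processed pseudogenes that may share reads with them.

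Proteasome subunits were higher in 18 of 41 and lower in 1, Psmb9 of the immunoproteasome (-1.57), with a median of 0.35. For IgG against input 2 were higher and 10 lower (median -0.32), and over IgG 26 of 40 were higher in CPEB1 IP (median 0.49). Psmd11, of the regulatory particle, had 510 and 519 CPM in CPEB1 IP, 276 and 292 in input, and 405 and 374 in IgG (0.86, adjusted p = 0.000249), with no overlap. Psmb4 was higher at 0.58 (adjusted p = 0.00393), a call lost without either CPEB1 IP library, and Psma3 was at 0.35 (adjusted p = 0.0596). Without CPEB1 IP library 1 or 2, 3 of the subunits were higher.

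Core spliceosome genes were higher in 22 of 61 and lower in 1 (median 0.30), but DESeq2 called 8 higher and 2 lower. The medians of 0.30 over IgG and -0.05 for IgG against input lay inside the ranges that scaling moves. Sf3b1, which recognises the branch point, had 1547 and 1531 CPM in CPEB1 IP, 1022 and 1069 in input, and 1041 and 1128 in IgG (0.56, adjusted p = 0.00376, lost without either CPEB1 IP library). Sf1 was at 0.10 (adjusted p = 0.575). DEAD and DEAH box helicases, a family to which Eif4a3, Ddx21 and Ddx54 belong, were higher in 21 of 49 and lower in 2 (median 0.34), and in 11 without CPEB1 IP library 2. Of the most abundant, Ddx3x was higher (0.63, adjusted p = 0.00256), and Ddx5, a cofactor of transcription and splicing, was lower, at 2985 and 2594 CPM against 3841 and 4437 in input (-0.57, adjusted p = 0.0066), both lost without CPEB1 IP library 2. SR proteins and hnRNPs were higher in 11 and lower in 1 of 36 (median 0.11), and higher in 2 without either CPEB1 IP library and 19 without input library 2. Rbm proteins were higher in 9 and lower in 2 of 38 (median 0.08), and higher in 5 without either CPEB1 IP library.

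**Figure D4:**
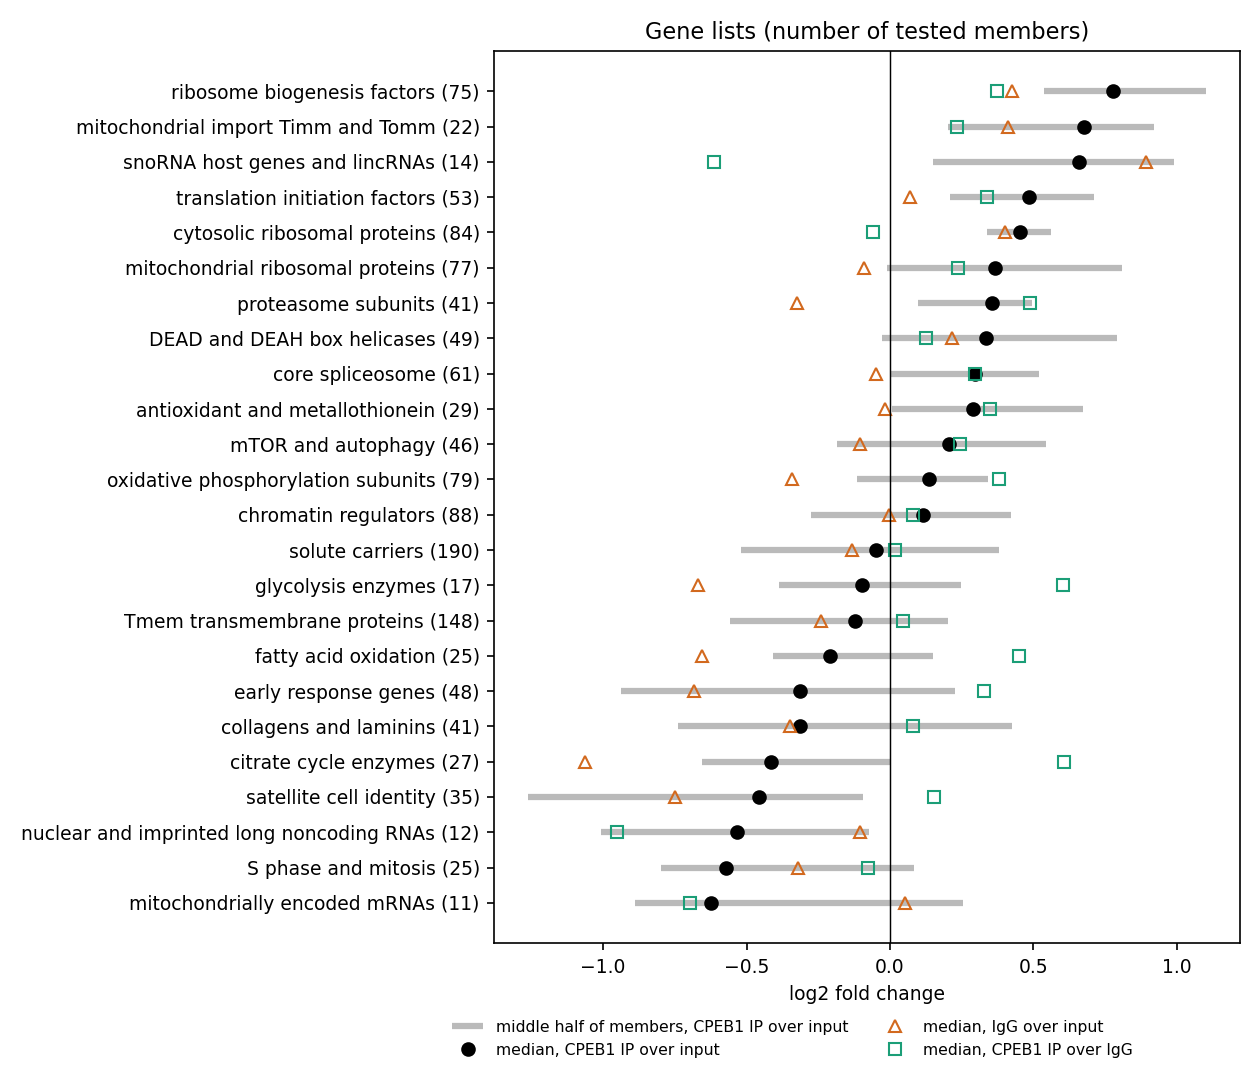
Median log2 fold change (x axis) of 24 gene lists (y axis, with the number of tested members) for CPEB1 IP over input (filled circles, with a grey bar from the lower to the upper quartile of the members), IgG over input (open triangles) and CPEB1 IP over IgG (open squares). Ribosome biogenesis is highest at 0.78 and mitochondrially encoded mRNAs lowest at -0.62, and the citrate cycle stands at -0.41 for CPEB1 IP and -1.06 for IgG over input.

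Mitochondrial genes split by function. Those for building the organelle were higher: of 22 Timm and Tomm import proteins 12 were higher and 2 lower (median 0.68), and of 77 mitochondrial ribosomal proteins 29 were higher and 1 lower (median 0.37), though 19 and 14 without CPEB1 IP library 1 or 2. Tomm20, the import receptor of the outer membrane, had 404 and 395 CPM in CPEB1 IP, 186 and 168 in input, and 321 and 369 in IgG (1.17, adjusted p = 3.72e-05). Timm23, the channel of the inner membrane, had 206 and 203 CPM against 111 and 104 in input and 170 and 169 in IgG (0.93, adjusted p = 0.000254). Tomm40 (0.72, adjusted p = 0.00294), Mrps7 (1.13, adjusted p = 8.96e-05) and Mrpl17 (0.86, adjusted p = 0.000502) were higher too. In Tomm20 and Timm23 the groups were separate and IgG lay between. As a list, the import proteins were raised in IgG against input too, with 8 higher and 2 lower of 22 and a median of 0.41. Over IgG, 3 of the 22 were higher in CPEB1 IP and 1 was lower. Of the mitochondrial ribosomal proteins, 10 were higher and 6 lower of 76 in IgG against input. Over IgG, 13 of 76 were higher in CPEB1 IP and 0 lower.

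Enzymes of the citrate cycle were lower: 13 of 27 were lower and 2 higher, with a median of -0.41, and 5 and 7 were lower without CPEB1 IP library 1 or 2. IgG lay lower still, at -1.06 against input with 22 of 27 lower, so that the same enzymes were 0.61 above IgG by their median. Idh2, the NADP-dependent isocitrate dehydrogenase, had 118 and 112 CPM in CPEB1 IP, 282 and 322 in input, and 63.9 and 56.8 in IgG (-1.40, adjusted p = 1.69e-05). Sdha, the flavoprotein of succinate dehydrogenase, had 224 and 206 CPM against 382 and 472 in input and 123 and 113 in IgG (-0.99, SE 0.14, adjusted p = 0.000221). For both, the order was input, CPEB1 IP and then IgG, without overlap. Mdh1 was lower at -0.48 (adjusted p = 0.0277) but lost its call with DESeq2 and without either CPEB1 IP library, and Mdh2 (-0.00, adjusted p = 0.985) and Ogdh (0.34, adjusted p = 0.0505) did not pass the test.

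Subunits of oxidative phosphorylation gave smaller shares of calls than all genes did, with 10 higher and 5 lower of 79 and a median of 0.14, which was -0.02 without input library 1. The higher ones numbered 6 and 4 without CPEB1 IP library 1 or 2 and 28 without input library 2, while the lower ones numbered 1 and 2 without CPEB1 IP library 1 or 2 and 11 without input library 1. Cox4i1, of complex IV, was higher at 549 and 563 CPM against 362 and 394 in input (0.56, adjusted p = 0.00435, lost without either CPEB1 IP library), and so was Uqcr10 of complex III (0.63, adjusted p = 0.0105, lost with DESeq2 and without CPEB1 IP library 2). Cox5a (0.41, adjusted p = 0.0695), Ndufa11 (0.02, adjusted p = 0.959) and Atp5b (-0.11, adjusted p = 0.541) did not pass the test. Atp5a1, the alpha subunit of ATP synthase, had 702 and 731 CPM in CPEB1 IP and 703 and 734 in input against 441 and 381 in IgG. Its value was thus the same in precipitate and cells (-0.00, adjusted p = 0.984) and 0.80 above IgG.

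Glycolysis (2 higher and 4 lower of 17, median -0.10) and fatty acid oxidation (2 higher and 5 lower of 25, median -0.21) had IgG medians of -0.67 and -0.66 against input. Without CPEB1 IP library 2 their lower genes numbered 1 and 2, and glycolysis also had 1 without library 1. Aldoa (-0.19, adjusted p = 0.262), Ldha (0.19, adjusted p = 0.254) and Pkm (-0.03, adjusted p = 0.887), the abundant glycolytic enzymes, did not pass the test against input.

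The mRNAs made inside the mitochondrion, which cytoplasmic proteins do not normally meet, were lower in 6 of 11 and higher in 1, mt-Nd3 (1.06), with a median of -0.62. mt-Cytb, cytochrome b, had 1975 and 1688 CPM in CPEB1 IP, 2816 and 2824 in input, and 2057 and 2261 in IgG (-0.62, adjusted p = 0.00292, lost without CPEB1 IP library 2). mt-Nd5 had 654 and 566 CPM against 930 and 1217 in input (-0.82, adjusted p = 0.00122), and overlaps mt-Nd6 on the other strand. mt-Co1 had 5480 and 3945 CPM against 3348 and 3906 (0.38, adjusted p = 0.0892), and mt-Nd1 was at 0.13 (adjusted p = 0.54). The 2 rRNAs also differed: mt-Rnr2 was lower (-0.98, adjusted p = 0.000871) and mt-Rnr1 was at -0.02 (adjusted p = 0.932). Of the mitochondrial tRNAs 4 were higher, from few counts in input, of which mt-Tp had 13.2 and 13.0 CPM against 5.68 and 4.47 (1.36, adjusted p = 0.0103). DESeq2 called none of the 4 and 1 was called without CPEB1 IP library 2.

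Genes that mark SCs were lower as a group: of 35 tested, 18 were lower and 4 higher, with a median of -0.46, and 11 and 12 were lower without CPEB1 IP library 1 or 2. IgG was lower still against input (23 of 35 lower, median -0.75). CPEB1 IP against IgG had a median of 0.15, which lies inside the range that scaling moves. Pax7, the transcription factor that defines these cells (ENSMUSG00000028736.13, chr4:139737062-139833528, minus strand), had 90.0 and 92.4 CPM in CPEB1 IP, 320 and 334 in input, and 96.3 and 84.1 in IgG. It was 3.58-fold lower than in input (log2 fold change -1.84, SE 0.13, adjusted p = 1.58e-06) and did not separate from IgG (0.02).

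Cdh15, the M-cadherin that ties SCs to the fibre, had 123 and 143 CPM in CPEB1 IP, 669 and 573 in input, and 82.9 and 76.5 in IgG (-2.22, SE 0.14, adjusted p = 7.4e-07), 4.65-fold lower than in input. Calcr, the calcitonin receptor that keeps SCs quiescent, had 172 and 159 CPM against 444 and 534 in input and 129 and 128 in IgG (-1.57, adjusted p = 8.4e-06). Gas1, a growth arrest gene, had 107 and 53.4 CPM against 325 and 472 in input and 102 and 105 in IgG (-2.36, SE 0.26, adjusted p = 3.72e-05). For each, both precipitates lay below the cells without overlap. Fgfr4 (-1.72, adjusted p = 4.47e-06) and Heyl, a Notch target (-1.34, adjusted p = 1.2e-05), were lower as well, as were Notch1 (-0.53, adjusted p = 0.00732), Notch2, Notch3, Hes1, Hey1, Megf10, Chodl, Sdc3, Eya4, Itgb1 and Cd34. Cdh15, Calcr, Gas1, Fgfr4, Heyl and the genes after them were picked after their values were seen.

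The 4 identity genes that were higher were Myod1, Fgfr1 (0.54, adjusted p = 0.0115, lost without CPEB1 IP library 1), Met (0.44, adjusted p = 0.022), the receptor for hepatocyte growth factor, and Cav1 (0.38, adjusted p = 0.0359), and 1 and 2 were higher without CPEB1 IP library 1 or 2. Among abundant identity mRNAs that did not pass the test were Sdc4 at 7067 and 5412 CPM against 5094 and 5541 (0.23, adjusted p = 0.253), Vcam1 (-0.02, adjusted p = 0.907) and Des (-0.21, adjusted p = 0.208). Pax3 was at -0.29 (adjusted p = 0.509). Myog, which drives terminal differentiation, was scarce and lower, at 6.19 and 4.74 CPM against 27.8 and 19.7 in input (-2.16, SE 0.33, adjusted p = 0.000375).

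Immediate early and stress genes, which dissociation of muscle is known to induce in SCs, were lower in 21 of 48 and higher in 7 (median -0.31), and IgG against input had 30 lower and a median of -0.68. Hspa1a, an inducible Hsp70, had 411 and 343 CPM in CPEB1 IP, 1625 and 1556 in input, and 230 and 208 in IgG (-2.08, adjusted p = 7.54e-07). Nr4a1, an orphan nuclear receptor, had 469 and 498 CPM against 1287 and 1263 in input and 298 and 362 in IgG (-1.40, adjusted p = 8.34e-06). Btg2, an antiproliferative partner of the CCR4-NOT deadenylase, had 493 and 516 CPM against 1226 and 1206 in input and 364 and 423 in IgG (-1.27, adjusted p = 1.59e-05). All 3 were in the order input, CPEB1 IP and IgG. Fos (-0.66, adjusted p = 0.00164), Jun (-1.08, adjusted p = 7.35e-05) and Junb (-0.67, adjusted p = 0.00297, lost without CPEB1 IP library 2) were lower too, and Egr1 (-0.35, adjusted p = 0.0522) did not pass the test.

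The 7 early genes that were higher, 3 without CPEB1 IP library 1 and 4 without library 2, differed in their level in IgG. Ccn2, a matricellular target of YAP, had 1324 and 1166 CPM in CPEB1 IP, 470 and 551 in input, and 1199 and 1222 in IgG (1.29, adjusted p = 2.59e-05), so that both precipitates were above input and overlapped each other. Fosl1, an AP-1 subunit, had 258 and 236 CPM against 116 and 86.2 in input and 142 and 157 in IgG (1.29, adjusted p = 7.55e-05), with CPEB1 IP above both. Dusp1, a MAP kinase phosphatase, was at 0.64 (adjusted p = 0.0017), and Nr4a2, Id1, Klf4 and Klf6 lay from 0.40 to 0.52.

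**Figure D5:**
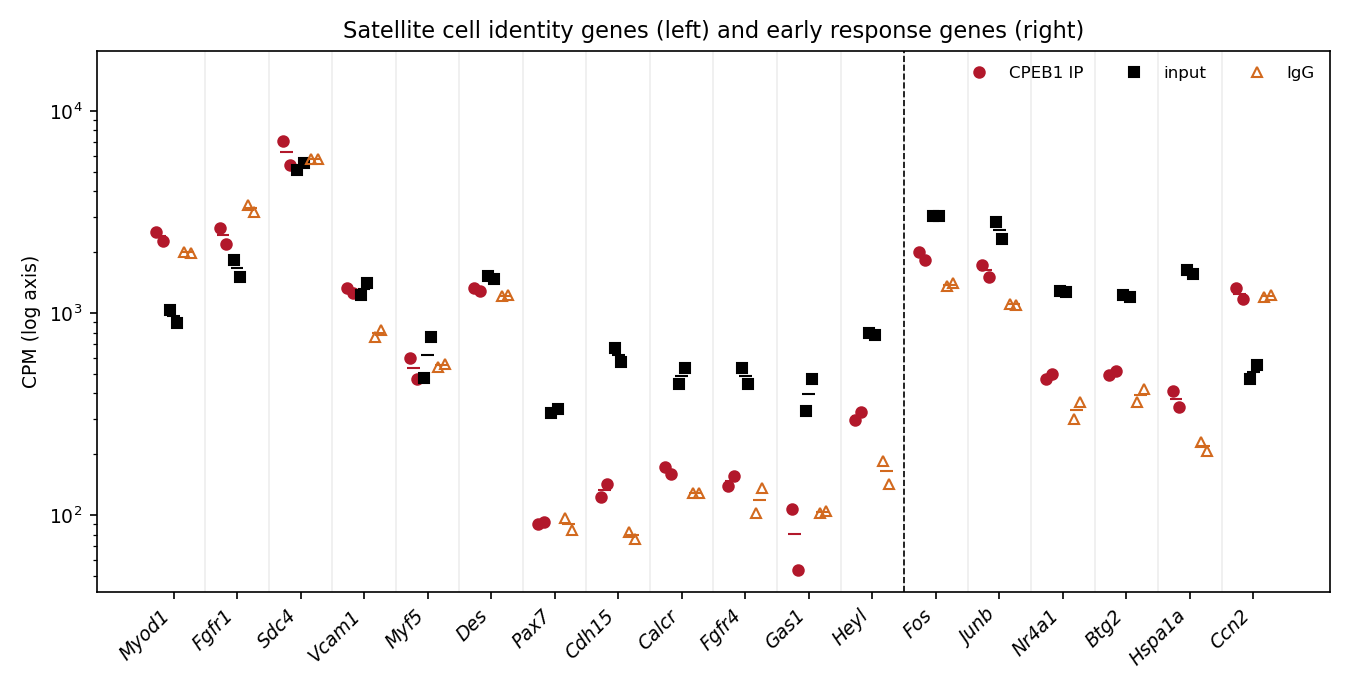
CPM (y axis, log scale) of 12 SC identity genes (left of the dashed line) and 6 early response genes (right) in each library, with CPEB1 IP as circles, input as squares, IgG as open triangles and a short line at each group's mean. Input lies above both precipitates from Pax7 (320 and 334 CPM) to Heyl and from Fos to Hspa1a, and below both for Myod1, Fgfr1 and Ccn2.

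Genes of S phase and mitosis, which quiescent cells hardly express, were lower in 7 of 25 tested and higher in 1 (median -0.57), with 4 lower without CPEB1 IP library 2. Mcm2, a subunit of the replicative helicase, had 1.24 and 3.09 CPM in CPEB1 IP against 23.3 and 22.4 in input and 1.58 and 3.03 in IgG (-3.22, SE 0.39, adjusted p = 6.58e-05). Mcm4 was lower at -1.43 (adjusted p = 0.000146), and Mcm7 (0.42, adjusted p = 0.0552) and Pcna (0.21, adjusted p = 0.315) did not pass the test. Chaperones went both ways, with 14 higher and 13 lower of 68 (median 0.05), but 4 higher and 8 lower without either CPEB1 IP library, and 23 higher without input library 2.

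Noncoding classes differed among themselves. Long noncoding genes were higher in 41 and lower in 48 of 437 (median -0.15), and over IgG their median was -0.88. Their median against input was 0.07 without input library 1, so it held no stable direction, and the calls were 21 and 27 without CPEB1 IP library 1, 16 and 24 without library 2, 17 and 16 with DESeq2, and 68 lower without input library 2. Pseudogenes were higher in 52 and lower in 17 of 517 (median 0.27), with 11 higher and 7 lower by DESeq2, 21 and 10 without CPEB1 IP library 1, 14 and 6 without library 2, and 85 higher without input library 2. Protein-coding genes took 96.6% and 96.9% of the counts in CPEB1 IP, 96.0% and 96.3% in input, and 92.5% and 92.7% in IgG. Genes of the annotation class TEC, transcripts whose coding status is open, were higher in 6 and lower in 40 of 264, with a median of -0.44 against input and -1.44 against IgG. Their lower calls numbered 10 with DESeq2, 20 without CPEB1 IP library 2, 19 without input library 1 and 74 without input library 2, and their median lay between -0.65 and -0.18 when a library was left out. By exon number, the median against input was 0.07 for genes of 1 exon block, 0.12 for 2 to 4, 0.04 for 5 to 9 and -0.09 for 10 or more, with 917 higher and 1146 lower in the last class of 5873 genes. Without CPEB1 IP library 1 or 2 that class had 497 and 410 higher and 615 and 660 lower.

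Of 12 nuclear and imprinted long noncoding RNAs, 7 were lower and 2 higher than in input (median -0.53), 4 without either CPEB1 IP library, and 9 were lower than in IgG (median -0.95). Malat1, a nuclear speckle RNA, had 1473 and 1137 CPM in CPEB1 IP, 2195 and 1666 in input, and 3093 and 3382 in IgG (-0.57, adjusted p = 0.017, lost without CPEB1 IP library 2). Meg3, an imprinted RNA, had 679 and 622 CPM against 1974 and 939 in input (-1.16, adjusted p = 0.00308, lost with DESeq2), and Rian of the same imprinted cluster had 101 and 111 against 302 and 290 (-1.48, adjusted p = 1.03e-05). Neat1, the scaffold of paraspeckles, had 528 and 492 CPM against 806 and 435 in input (-0.28, adjusted p = 0.327) and 1713 and 1523 in IgG. For Malat1 and Neat1, IgG lay above both other groups. Kcnq1ot1 was higher than input at 0.60 (adjusted p = 0.0212), a call lost without either CPEB1 IP library, and -1.38 against IgG.

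A list of Gas5, the Snhg genes and similar long noncoding RNAs, most of them hosts of snoRNAs, had 7 of 14 higher than input and none lower (median 0.66), 4 without CPEB1 IP library 2, but none was higher and 7 were lower than in IgG (median -0.61). Snhg15 had 155 and 164 CPM in CPEB1 IP, 88.2 and 63.2 in input, and 164 and 158 in IgG (1.08, adjusted p = 0.000407). Pvt1, a long noncoding RNA next to Myc and not in the list, had 128 and 133 CPM against 69.9 and 55.2 in input and 155 and 169 in IgG (1.06, adjusted p = 0.000309). Both precipitates were thus above the cells. Gas5 had 443 and 458 CPM against 495 and 419 (-0.02, adjusted p = 0.925) and 645 and 792 in IgG.

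The largest ratios among protein-coding genes with a mean of at least 10 CPM belonged to predicted genes that are hard to place. Of the 10 top-ranked protein-coding genes, 8 were Gm genes of unknown function that share from 35.8% to 75.1% of their 31-base words with others of the 10, so that reads may be split among them. Gm10800 (chr2:98666547-98667301) had 14333 and 8323 CPM in CPEB1 IP against 7.77 and 23.6 in input (9.49, SE 0.40, adjusted p = 1.37e-08), but 38694 and 44600 in IgG. Gm21738 had 2474 and 1846 CPM against 0.897 and 3.28 in input and 7656 and 8720 in IgG. Gm10719 and Gm11168 had no count in input and were at least 138-fold and 105-fold higher against a floor of 3 counts over the group, and Gm10717, with 1 count in input, had a ratio of 1780 (95% counting interval 319 to 70322). These RNAs were thus in both precipitates, and for Gm10800 and Gm21738 IgG lay above CPEB1 IP.

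The other 2 of the top 10 were matrix genes. Col2a1, the cartilage collagen, had 25.2 and 22.5 CPM against 0.598 and 0.895 in input and 22.9 and 18.2 in IgG (4.92, SE 0.44, adjusted p = 9.66e-06). Spp1, osteopontin, had 70.6 and 87.6 CPM against 8.07 and 2.09 in input and 64.7 and 83.4 in IgG (3.96, adjusted p = 6.3e-06). In both, CPEB1 IP and IgG overlapped and lay above input. At the low end stood Mcm2, then Scd2, a fatty acid desaturase, at 9.91 and 13.0 CPM against 71.7 and 93.1 in input and 4.74 and 6.82 in IgG (-2.80, adjusted p = 3.03e-06), Dbp, a circadian transcription factor (-2.59, adjusted p = 1.09e-05), and Irgm2, an interferon-induced GTPase (-2.49, adjusted p = 2.2e-06). Pnmal2, Adamts8, Glrb, Lrrn1, Plekhh3 and Ccdc8 completed the 10, from -2.43 to -2.60.

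Markers of cells other than SCs moved as well. In bulk libraries of precipitate and input, the number of cells of a type, the RNA per cell and the recovery of that RNA on beads or antibody cannot be told apart. The methods sorted SCs as Vcam1+ cells lacking CD31, CD45 and Sca1, a gate meant to leave out endothelial cells, leukocytes and fibro-adipogenic progenitors. Of 10 endothelial markers 8 were higher and none lower (median 1.40), and their summed level was 410 and 447 CPM in CPEB1 IP, 160 and 149 in input, and 344 and 353 in IgG. Cldn5, the endothelial claudin, had 171 and 194 CPM against 15.8 and 8.05 in input and 138 and 117 in IgG (3.94, SE 0.23, adjusted p = 3.65e-07), while the receptor Tek had 70.6 and 75.5 against 75.0 and 83.2 (-0.11, adjusted p = 0.608). Erythroid markers summed to 78.4 and 95.5 CPM against 6.87 and 9.84 in input and 84.4 and 91.7 in IgG, and the globin Hbb-bs was at 3.36 (adjusted p = 1.07e-05). In both lists the precipitates lay above input.

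Fibro-adipogenic markers had 5 higher and 2 lower of 9, and 3 higher without either CPEB1 IP library. The matrix proteoglycan Dcn was higher at 293 and 277 CPM against 71.1 and 74.6 (1.97, adjusted p = 1.24e-06), and Col3a1 was lower at 664 and 622 against 1846 and 1761 (-1.49, adjusted p = 5.39e-06), which set the sum at 1497 and 1501 CPM against 2527 and 2441 in input and 1235 and 1160 in IgG. Smooth muscle and pericyte markers were lower in 6 of 10 and higher in none, with a sum of 724 and 740 CPM against 1418 and 1520 in input and 601 and 567 in IgG. The smooth muscle actin Acta2 had 192 and 203 CPM against 400 and 432 in input, at -1.07. Macrophage and leukocyte markers summed to 85.4 and 96.5 CPM against 49.3 and 41.2 in input and 100 and 91.7 in IgG. Of 5 tested, 1 was higher. Glial markers summed to 178 and 184 CPM against 112 and 109 in input and 171 and 120 in IgG. Of 5 tested there, 4 were higher and 1 lower. The sum over the SC identity list was 21679 and 18982 CPM in CPEB1 IP, 21066 and 21800 in input, and 18894 and 18720 in IgG. The part of other cells in the results above was not tested. For Eif4a3, Kdm5b, Gapvd1, Ddx21 and Chd4 the log2 fold changes over IgG were 2.25, 1.89, 1.74, 1.66 and 1.79. These genes were selected for a log2 fold change over 1 against both input and IgG. High values over IgG thus follow from the selection and cannot show the part of other cells.

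In matrix and membrane lists lower genes outnumbered higher ones, beside shares of 17.0% higher and 15.8% lower over all genes tested. Integrins and cadherins (16.4% and 18.2%) and solute carriers (14.2% and 16.8%) lay near those shares. Collagens and laminins were higher in 9 and lower in 15 of 41 (median -0.31), integrins and cadherins in 9 and 10 of 55 (median -0.35), solute carriers in 27 and 32 of 190 (median -0.05), and Tmem transmembrane proteins in 14 and 28 of 148 (median -0.12). Zfp zinc finger proteins were higher in 27 and lower in 20 of 235, Rab GTPases in 5 and 5 of 39, and motor proteins in 6 and 7 of 37. Leaving out a CPEB1 IP library lowered these counts, to 4 higher for collagens and laminins with either, to 2 higher and 5 lower for integrins and cadherins, 13 and 15 for solute carriers, 11 and 6 for Zfp proteins and 15 lower for Tmem proteins without library 2, and to 1 higher and 1 lower for motor proteins without library 1. Rab GTPases had 2 lower without either of them, 12 higher without input library 2 and 9 lower without input library 1.

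Among regulators of chromatin and growth, higher genes outnumbered lower ones, beside shares of 17.0% higher and 15.8% lower over all genes tested. Chromatin regulators were higher in 22 and lower in 14 of 88 (median 0.12), with 10 and 8 higher and 4 and 6 lower without CPEB1 IP library 1 or 2. Genes of mTOR signalling and autophagy were higher in 14 and lower in 6 of 46 (median 0.21), with 8 and 6 higher without those libraries and 2 lower without library 1. Antioxidant genes and metallothioneins were higher in 11 of 29 and lower in none (median 0.29), with 6 and 7 higher without those libraries and 17 without input library 2.

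Other regulators of mRNA were mixed. Translational repressors and granule proteins were higher in 12 and lower in 4 of 40 (median 0.23), with 6 and 7 higher without CPEB1 IP library 1 or 2 and 1 lower without library 2. Genes of polyadenylation and deadenylation were higher in 7 and lower in 9 of 37 (median 0.07), with 2 and 1 higher and 4 and 5 lower without those libraries, and 11 higher without input library 2. The poly(A)-binding protein Pabpc1, of this list, had 1253 and 1171 CPM against 836 and 864 in input (0.51, adjusted p = 0.00661) and lost its call without either CPEB1 IP library. The exon junction complex and decay factors, among them Eif4a3, were higher in 5 and lower in 1 of 17 (median 0.18), with 3 and 1 higher without CPEB1 IP library 1 or 2.

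Differentiation and sarcomere genes, scarce in SCs, were higher in 6 and lower in 3 of 23 (median 0.36), with 3 higher without CPEB1 IP library 2. Acta1, skeletal actin, had 78.0 and 94.2 CPM in CPEB1 IP, 34.7 and 28.6 in input, and 67.1 and 59.1 in IgG (1.45, adjusted p = 8.06e-05), with no overlap. Their summed level was 953 and 1029 CPM in CPEB1 IP, 1240 and 1132 in input, and 1122 and 975 in IgG, with input above CPEB1 IP, the opposite order to Acta1.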

How the data were processed

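RIP-seq libraries were compared from 6 samples in 3 groups taken from the sample labels. The authors mapped reads to mm10 with HISAT and counted them on genes with featureCounts, and the raw counts were deposited without normalization. HISAT2, StringTie and featureCounts are named in the submitters' processing notes. The annotation release, strand setting and treatment of multi-mapped reads are not given in the sources used here. The deposited FPKM values, which the authors computed from the counts, were not used.

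The test was run with edgeR 4.0.16 (R 4.3.3), using filterByExpr, TMM, glmQLFit and glmQLFTest on the libraries of the 2 groups compared, with Benjamini-Hochberg adjustment over all genes tested. CPM of IgG was scaled in the fit with CPEB1 IP, whose scaling differed between fits by at most 0.53%. DESeq2 1.42.0, other scalings, no filter, all 6 libraries in 1 fit, protein-coding genes only, a replicate block and leaving out each library were alternatives.

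Of the 55376 genes, 54488 were matched to the GENCODE annotation of GRCm38 by symbol and 805 by position. Overlap between genes was read from it. Intervals and floors cover counting error only.

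Named genes were the 10 protein-coding genes with the largest change each way (adjusted p under 0.05, mean CPM of at least 10, groups not overlapping), the 3 most abundant of each list, 5 noncoding genes each way, and a set of CPEB, myogenic, mitochondrial, rRNA-processing and initiation genes. Other genes were picked after their values were seen. The members and lists were chosen with earlier results of these data known. On simulated data for CPEB1 IP against input, with 200 of 12171 genes changed, 7.5% were recovered at a log2 fold change of 0.5, 59.0% at 1 and 96.0% at 2. Some genes are not reported here.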

Additional observations from a re-analysis of the deposited data

How the results depend on the processing

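Genes higher and lower in CPEB1 IP than in input numbered 1222 and 1181 with DESeq2, 782 and 895 with a log2 fold change over 1 in size, and from 957 to 2646 and from 1064 to 2347 when a library was left out. Against IgG the higher genes numbered 1037 with upper quartile scaling, 3513 with no filter, 167 with a log2 fold change over 1, and from 1054 to 1783 when a library was left out. For IgG against input, DESeq2 called 1004 higher and 1530 lower, 1389 were lower by over 1 on the log2 scale, and leaving out a library gave from 1354 to 2170 higher and from 1709 to 2400 lower. The alternatives for the genes at least doubled over both were chosen after seeing the data, and gave 24 with upper quartile scaling and from 29 to 50 when a library was left out. The median of genes with 5 to 9 exon blocks was -0.0295 with upper quartile scaling and -0.0269 with counts on genes alone. For coding length from 765 to 1197 bases the median, 0.02 as reported, was -0.0536 and -0.0504 with these, -0.0275 with all 6 libraries in 1 fit, and from -0.0277 (without input replicate 1) to 0.0430 when a library was left out. With any of the 9 motifs the study lists in place of 2, the share with a CPE was 74.4% of higher and 72.2% of lower genes. The cause of these shifts was not tested.

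Same-numbered libraries showed no shared deviation. Over 14276 genes, their deviations from the group means correlated at -0.02 for CPEB1 IP and input and -0.01 for CPEB1 IP and IgG. For IgG and input the value was 0.03. With 2 libraries a group this cannot show whether same-numbered libraries came from the same cells, which the sources do not state. With the replicate block, 1937 genes were higher and 1804 lower in CPEB1 IP than in input, 1739 higher than in IgG, 2777 higher and 2681 lower in IgG than in input, and 39 at least doubled over both.

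Of 226 named genes tested, 160 were called, 110 of them in every alternative, and 17 lost their call with DESeq2. In the simulation, where 200 of 12171 genes changed, 7.5% of the changes of 0.5 on the log2 scale were recovered. Many more genes were called in the data, a setting that was not simulated, so this share need not hold there.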
